A study of Mus musculus with 8 samples.

Results

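Calb2, which encodes calretinin, divided the geniculate ganglion libraries of this series into 4 high and 4 low ones, and the 4 Calb2-high libraries are described here beside the 4 Calb2-low libraries, out of 8 libraries in all. Libraries were chosen by their Calb2 level, the Calb2-high ones being those at 100 CPM or more, where CPM is the raw count scaled by each library's total. They were Egr4-/- knockout libraries 1, 3 and 4 and Egr4+/+ wild type library 4. The Calb2-low libraries were knockout library 2 and wild type libraries 1, 2 and 3. At the edge of the rule, Calb2 stood at 351 CPM in knockout library 1, the lowest of the Calb2-high libraries, and at 20.8 CPM in wild type library 2, the highest of the Calb2-low ones. These values lay 16.8-fold apart, with no library between them.

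The geniculate ganglion holds the cell bodies of facial nerve sensory neurons, which serve the taste buds of the front of the tongue and the palate and the skin of the outer ear. It lies within the temporal bone, where the facial nerve runs beside the vestibulocochlear nerve and its vestibular and cochlear ganglia, and under the cerebellum. Calretinin, calbindin (Calb1) and parvalbumin (Pvalb) are EF-hand proteins that bind calcium ions in neurons. Calretinin is known from vestibular afferents that form calyx endings on hair cells, and calbindin and parvalbumin are known from the Purkinje cells of the cerebellum, the output neurons of its cortex.

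The study measured total RNA of whole ganglia, with all their cells, from 4 Egr4-/- knockout and 4 Egr4+/+ wild type littermate mice. All mice were adults on the C57Bl/6 background, and each gave 1 library. How the Egr4 allele was made is not given in the labels. Egr4 encodes a zinc finger transcription factor. It stood at 0.444, 1.22, 0.940 and 1.04 CPM in knockout libraries 1 to 4, against 1.54, 3.14, 0.925 and 3.24 CPM in wild type libraries 1 to 4, so the genotypes overlapped. By edgeR's quasi-likelihood test its log2 fold change was -1.27 (SE 0.65) and its adjusted p 0.924. Because the deleted part of the gene is not known, this level does not check the genotype labels. Total counts ran from 30849310 to 54255872 per library. Xist had no count in 2 Calb2-high libraries and 1 Calb2-low library, and at least 177 counts in each of the others. Levels below are CPM scaled by TMM, edgeR's correction for differences in composition between libraries. Values of the Calb2-high libraries are given for knockout libraries 1, 3 and 4 and then wild type library 4. Values of the Calb2-low libraries are given for knockout library 2 and then wild type libraries 1, 2 and 3.

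Calb1 and Pvalb were high in the same 4 libraries as Calb2. Calb1 (chromosome 4, 15881264 to 15906709, mm10) stood at 151, 598, 593 and 467 CPM in the Calb2-high libraries, against 37.7, 27.4, 26.04 and 19.3 CPM in the Calb2-low libraries. Pvalb (chromosome 15, 78191118 to 78206351) stood at 352, 465, 490.4 and 512 CPM in the Calb2-high libraries, against 19.96, 18.0, 32.0 and 11.5 CPM in the Calb2-low libraries. Neither gene overlapped between the sets, and knockout library 1 was the lowest of the Calb2-high libraries for all 3 calcium-binding protein genes. On the log2 scale Calb1 averaged 8.63 ± 0.95 in the Calb2-high libraries and 4.75 ± 0.39 in the Calb2-low libraries (SD, n = 4 each), a difference of 3.89. Pvalb averaged 8.81 ± 0.24 and 4.26 ± 0.60 in the Calb2-high and Calb2-low libraries (SD, n = 4 each), a difference of 4.56.

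Divided by gene length, levels can be set beside each other across genes. Calb2 stood at 258, 731, 556 and 796 CPM per kilobase in the Calb2-high libraries, and at 10.7, 5.03, 14.0 and 8.22 CPM per kilobase in the Calb2-low libraries. Pvalb stood at 389, 515, 543 and 567 CPM per kilobase in the Calb2-high libraries. Calb1 was the lowest of the 3 per length in each of them, at 52.5, 209, 207 and 163 CPM per kilobase. In the Calb2-low libraries Pvalb was the highest per length in each, at 22.1, 19.9, 35.4 and 12.8 CPM per kilobase.

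**Figure D1:**
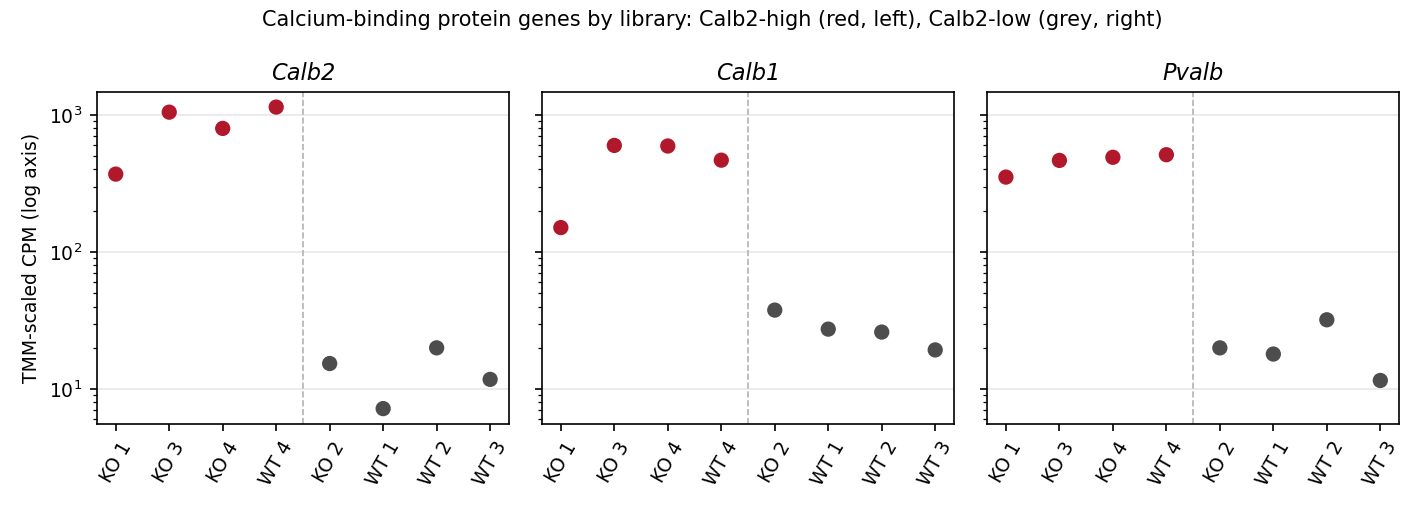
Level of Calb2, Calb1 and Pvalb in each of the 8 libraries, as TMM-scaled CPM on a log axis, with Calb2-high libraries in red on the left and Calb2-low libraries in grey on the right. The 4 Calb2-high libraries lie above every Calb2-low library for all 3 genes, and knockout library 1 is the lowest of them each time.

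Since the libraries were divided by a measured value, the other genes are described with no test between the sets. A gene is called set apart where the 4 Calb2-high and 4 Calb2-low libraries do not overlap in log2 CPM (prior count 2) and their means differ by at least 1 on the log2 scale, which is 2-fold. Of 14394 genes with a mean of at least 1 CPM, Calb2 left out, 265 were set apart higher in the Calb2-high libraries (1.84%) and 131 lower (0.91%), or 396 in either direction (2.75%). Without a minimum difference, 1011 genes (7.02%) did not overlap and were higher and 548 (3.81%) were lower. With a 4-fold minimum, 94 genes were higher and 13 lower, and with an 8-fold minimum 49 were higher and 5 lower. The large differences were thus mostly on the higher side, while the median difference over all 14394 genes was -0.04.

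The Calb2-high libraries were not uniform. Among the 173 higher genes that reached a mean of 10 CPM in the Calb2-high libraries and had the same direction within each genotype, knockout library 1 was the lowest of the 4 for 150. Wild type library 4 was the highest for 89 of them, knockout library 4 for 57, knockout library 3 for 23 and knockout library 1 for 4. Among the 73 lower genes chosen in the same way, knockout library 4 held the lowest value for 45.

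The genes with the largest differences on the higher side came from unrelated families. Trim54, a RING finger protein of striated muscle that binds microtubules, had 6.58, 10.6, 31.5 and 13.2 CPM in the Calb2-high libraries, against 0, 0, 0.124 and 0 CPM in the Calb2-low libraries. The Calb2-low value rests on 4 counts in wild type library 2, so its log2 difference depends on the prior count and is not given. Art1, an ADP-ribosyltransferase of the cell surface, had 37.2, 51.5, 49.6 and 70.8 CPM in the Calb2-high libraries, against 0.609, 0.247, 0.404 and 0.430 CPM in the Calb2-low libraries, a log2 difference of 6.83. Crhr1, a receptor for corticotropin-releasing hormone, had 33.0, 71.7, 61.4 and 68.8 CPM in the Calb2-high libraries, against 0.772, 0.288, 1.55 and 0.645 CPM in the Calb2-low libraries, a log2 difference of 6.25. Art1 (chromosome 7, 102101743 to 102111148) and Crhr1 (chromosome 11, 104132882 to 104175518) were near 0 in each Calb2-low library and well above it in each Calb2-high one.

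Among genes of neuronal signalling, Shisa8 and Chrna4 stood apart. Shisa8, an auxiliary protein of AMPA-type glutamate receptors, had 122, 223, 261 and 353 CPM in the Calb2-high libraries, against 9.85, 18.6, 13.6 and 7.79 CPM in the Calb2-low libraries. Chrna4, a subunit of the neuronal nicotinic acetylcholine receptor, had 12.9, 55.4, 28.8 and 52.1 CPM in the Calb2-high libraries, against 1.52, 1.07, 4.57 and 2.34 CPM in the Calb2-low libraries. Ina, the neuronal intermediate filament alpha-internexin, had 70.2, 139, 155 and 210.4 CPM in the Calb2-high libraries, against 14.6, 7.24, 31.9 and 1.96 CPM in the Calb2-low libraries. Their log2 differences were 4.24 for Shisa8, 3.94 for Chrna4 and 3.88 for Ina. Ina shares 456 exon bases with Nt5c2 on the opposite strand, and Trim54 shares 382 with Gm15469. The labels describe no step that marks strand, so reads of such overlapping genes cannot be told apart. Pmel, which forms the fibrils of melanosomes, stood at 4.09, 19.2, 18.4 and 12.2 CPM in the Calb2-high libraries, against 1.45, 0.247, 0.342 and 0.925 CPM in the Calb2-low libraries.

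Tcap, Smpx and Mb, known like Trim54 from striated muscle, need the muscle marker list beside them. Tcap, which encodes the Z-disc protein telethonin, had 39.4, 42.2, 152 and 58.8 CPM in the Calb2-high libraries, against 3.23, 1.42, 0.684 and 0.538 CPM in the Calb2-low libraries. Smpx, a small cytoskeletal protein of muscle whose loss causes deafness in people, had 9.504, 11.7, 20.2 and 13.2 CPM in the Calb2-high libraries, against 0.187, 1.36, 0.466 and 1.33 CPM in the Calb2-low libraries. Both were higher in all 4 Calb2-high libraries, with knockout library 4 at the top. Mb, myoglobin, which shares 412 exon bases with Gm49540, was mostly a value of knockout library 4, with 1.82, 2.16, 109 and 2.73 CPM in the Calb2-high libraries, against 0.866, 0.0617, 0.652 and 0.194 CPM in the Calb2-low libraries. The 9 measured skeletal muscle markers, with Acta1, Ckm and Myh4 among them, summed to 21.99, 23.9, 1738 and 15.4 CPM in the Calb2-high libraries and to 64.4, 14.0, 11.1 and 58.0 CPM in the Calb2-low libraries. None of the 9 was set apart, and their median difference was 0.99, or -0.65 without knockout library 4. In knockout libraries 1 and 3 and wild type library 4 the summed muscle level was below that of knockout library 2 and wild type library 3, while Trim54, Tcap and Smpx were above every Calb2-low library.

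Fewer genes stood far apart on the lower side, and their differences were smaller. Galnt6, an enzyme that starts mucin-type O-glycans, had 2.60, 6.64, 0.0232 and 6.23 CPM in the Calb2-high libraries, against 9.85, 17.1, 21.8 and 8.95 CPM in the Calb2-low libraries. Its log2 difference of -3.03 leans on knockout library 4. Filip1l had 4.89, 3.503, 2.30 and 1.44 CPM in the Calb2-high libraries, against 26.4, 8.54, 10.7 and 9.42 CPM in the Calb2-low libraries. Sorcs2, a sorting receptor of the VPS10 family, had 3.37, 3.48, 2.97 and 6.47 CPM in the Calb2-high libraries, against 13.2, 11.6, 22.03 and 16.1 CPM in the Calb2-low libraries. Cspg4, the NG2 proteoglycan of glial progenitors and pericytes, had 4.53, 7.56, 2.41 and 7.02 CPM in the Calb2-high libraries, against 18.0, 13.3, 20.3 and 13.9 CPM in the Calb2-low libraries. The other lower genes of this rank were Adamts4, an aggrecan protease, Lctl, a Klotho family protein, Nipal4, of the NIPA magnesium transporter family, and Sema6a, a membrane semaphorin. Their log2 differences were -1.88 for Adamts4, -1.84 for Lctl, -1.81 for Nipal4 and -1.74 for Sema6a.

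**Figure D2:**
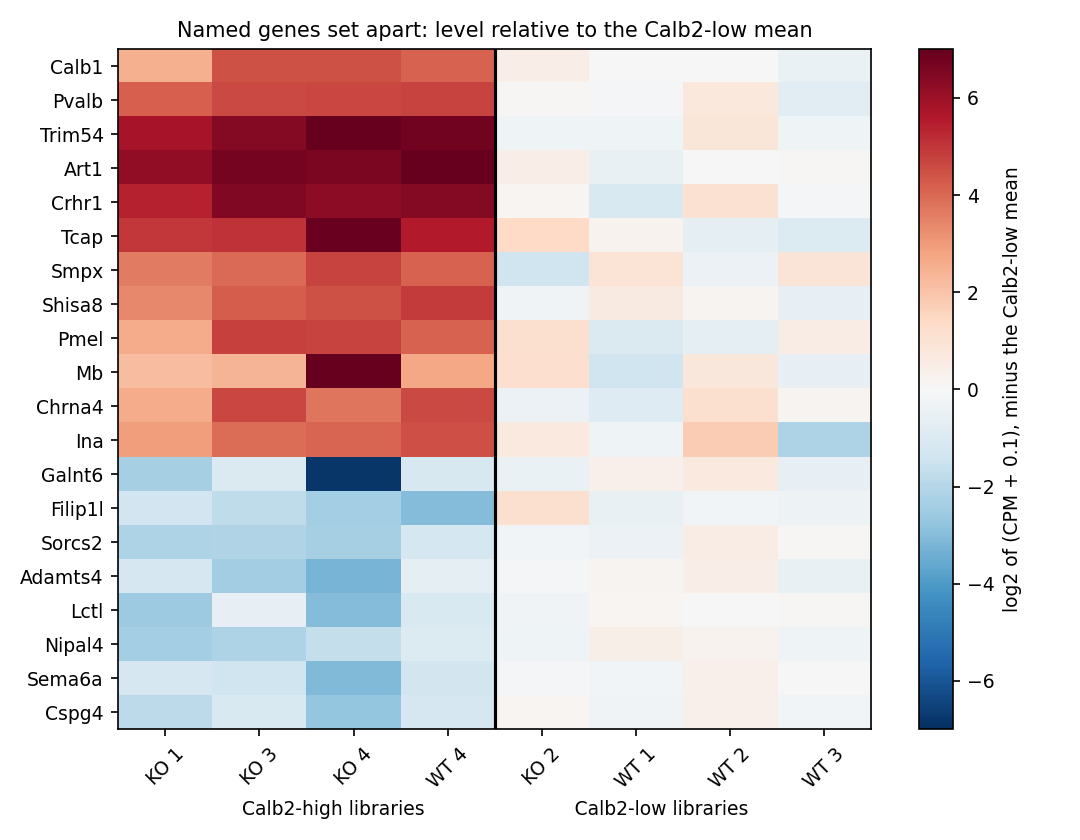
Level of Calb1, Pvalb, 10 further genes higher and 8 genes lower in the Calb2-high libraries, as log2 of CPM plus 0.1 minus the mean of the 4 Calb2-low libraries, with colours capped at 7 in either direction. Calb2-high libraries are the 4 columns left of the black line. The higher genes are red in all 4 of those columns, Mb is deepest in knockout library 4, and knockout library 1 is the palest of the 4 for each of the higher genes.

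The question of which neighbouring neurons the Calb2-high libraries held was approached with marker lists. Counts of list members can be set beside the share over all genes, 1.84% set apart higher and 0.91% lower. A short list with none set apart is near that share. In whole ganglia, fewer cells of a type and less RNA per cell cannot be told apart. For the neurons of the vestibular and cochlear ganglia, 5 of 18 measured markers were set apart higher (Spp1, Lypd1, Esrrg, Calb1 and Pvalb) and 1 lower (Prox1), with a median log2 difference of 0.63, against -0.04 over all genes. Without Calb1 and Pvalb the median of the other 16 was 0.40. Spp1, the secreted phosphoprotein osteopontin (chromosome 5, 104435111 to 104441053), which shares 309 exon bases with Gm42793, was the most abundant, with 2151, 2784, 2795 and 3287 CPM in the Calb2-high libraries, against 1014, 472, 308 and 466 CPM in the Calb2-low libraries. Esrrg, an orphan nuclear receptor, had 18.5, 28.0, 27.9 and 53.0 CPM in the Calb2-high libraries, against 3.86, 4.07, 8.08 and 7.14 CPM in the Calb2-low libraries. Lypd1, a protein that modulates nicotinic receptors, had 35.1, 37.1, 31.6 and 52.0 CPM in the Calb2-high libraries, against 7.09, 13.1, 11.3 and 15.3 CPM in the Calb2-low libraries. All of these were high in each Calb2-high library, in both genotypes.

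Other markers of that list gave less separation. Nefh, the heavy neurofilament subunit of large axons, had 611, 1169, 1245 and 1638 CPM in the Calb2-high libraries, against 308, 296, 365 and 676 CPM in the Calb2-low libraries, so wild type library 3 overlapped knockout library 1. Slc17a6, the vesicular glutamate transporter of most sensory ganglion neurons, had 139, 207, 245 and 260.0 CPM in the Calb2-high libraries, against 68.9, 123, 124 and 185 CPM in the Calb2-low libraries, with the same overlap. The neurotrophin receptor Ntrk2, with a log2 difference of -0.22, and Ntrk3, at 0.07, differed little. Gata3 and Prox1, transcription factors known from cochlear ganglion neurons, were both near 0. Gata3 had 1.06, 1.40, 0.0928 and 2.08 CPM in the Calb2-high libraries, against 0.398, 0.370, 0.186 and 1.18 CPM in the Calb2-low libraries. Prox1 had 1.25, 0.645, 0.882 and 0.842 CPM in the Calb2-high libraries, against 4.03, 1.25, 4.72 and 1.27 CPM in the Calb2-low libraries. Gata3 had a log2 difference of 0.79 and a mean under 1 CPM, so it was not among the genes that could be set apart.

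Summed without Calb1 and Pvalb, the vestibulocochlear markers came to 3880 to 6421 CPM in the Calb2-high libraries and 1791 to 2742 CPM in the Calb2-low libraries, with no overlap. Lists shared by many neurons did not overlap either. Pan-neuronal genes summed to 9538 to 13702 CPM in the Calb2-high libraries and 5260.2 to 8569 CPM in the Calb2-low libraries, and genes of synaptic release to 5155 to 8605 CPM in the Calb2-high libraries and 2532 to 4453 CPM in the Calb2-low libraries. Spp1 made up much of the vestibulocochlear sum. With Spp1 left out as well, the remaining 15 came to 1730, 2678, 2726 and 3134 CPM in the Calb2-high libraries and 1223, 1329, 1482 and 2276 CPM in the Calb2-low libraries, and the sets overlapped. Of the 18 markers, 9 also stand in another list, such as those of somatosensory, taste or fast-firing neurons.

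Markers of the sensory hair cells that vestibular neurons contact were at low levels and mostly overlapped. Of 15 hair cell markers 5 were measured, and 1 of these, Tmc1, a part of the hair cell transduction channel, was set apart at 2.26, 3.59, 2.09 and 2.88 CPM in the Calb2-high libraries, against 0, 0.617, 0.0621 and 0.387 CPM in the Calb2-low libraries. Myo7a, a myosin of the hair bundle that other cells also make, was the most abundant, with 8.78, 12.1, 11.2 and 5.38 CPM in the Calb2-high libraries, against 11.0005, 7.98, 19.4 and 9.05 CPM in the Calb2-low libraries. The 5 summed to 13.7, 22.8, 18.8 and 13.5 CPM in the Calb2-high libraries and to 14.9, 10.8, 22.7 and 15.8 CPM in the Calb2-low libraries. Coch and Gjb6, genes of the inner ear's supporting tissue, were not set apart.

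Purkinje and granule cell genes, which mark the cerebellum, were high in 2 of the 4 Calb2-high libraries. Car8, a Purkinje cell protein that binds the IP3 receptor, had 5.29, 107, 329 and 8.27 CPM in the Calb2-high libraries, against 12.8, 8.78, 11.8 and 4.77 CPM in the Calb2-low libraries. Pcp2, whose name stands for Purkinje cell protein, had 2.10, 18.8, 41.8 and 3.15 CPM in the Calb2-high libraries, against 2.504, 2.90, 1.80 and 1.85 CPM in the Calb2-low libraries. Slc1a6, the glutamate transporter of Purkinje cells, had 4.55, 35.5, 182 and 5.94 CPM in the Calb2-high libraries, against 5.45, 2.32, 5.69 and 1.89 CPM in the Calb2-low libraries. Each of the 3 was high in knockout libraries 3 and 4, while knockout library 1 and wild type library 4 stayed near the Calb2-low libraries. The same held for the granule cell genes Gabra6, a GABA-A receptor subunit, and Cbln3, a cerebellin. Gabra6 had 3.70, 35.9, 95.1 and 2.93 CPM in the Calb2-high libraries, against 3.14, 3.497, 3.85 and 7.29 CPM in the Calb2-low libraries. Cbln3 had 3.81, 41.4, 107 and 4.56 CPM in the Calb2-high libraries, against 3.79, 5.49, 5.31 and 9.44 CPM in the Calb2-low libraries.

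Of 11 measured Purkinje markers, 3 were set apart, with Calb1 and Pvalb among them, and none of 11 granule cell markers was. All 11 granule cell markers had a positive difference. Their median was 1.18 over all libraries, 1.62 within knockout and 0.30 within wild type. The Purkinje markers without Calb1 and Pvalb summed to 81.8, 306, 873 and 66.0 CPM in the Calb2-high libraries and to 89.1, 58.9, 137 and 47.9 CPM in the Calb2-low libraries. The median log2 difference of the Purkinje list was 1.82 with all 8 libraries and -0.03 without knockout libraries 3 and 4, an alternative chosen after seeing the data. Wild type library 4 had Calb1 at 467 CPM and Pvalb at 512 CPM with Car8 at 8.27 CPM, so high Calb1 and Pvalb were also found in a library with Purkinje markers at the Calb2-low level. Without knockout libraries 3 and 4, 725 genes were set apart, 345 higher and 380 lower, and 337 of the 396 found with all 8 libraries were among them. Trim54, Tcap and the muscle list, and the Purkinje and granule cell lists, were all highest in knockout library 4, and the part of these tissues in its other values was not tested.

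The markers of taste neurons, taken as a list, differed little in median between the sets. Their median log2 difference was -0.05. None of the 15 measured gustatory neuron markers was set apart, and 14 of them reached the mean of 1 CPM needed. Over all genes 2.75% were set apart, so for a list of this length the count alone says little. P2rx2, an ATP receptor subunit that taste nerves need, had 101, 73.8, 97.9 and 159.9 CPM in the Calb2-high libraries, against 67.9, 150.3, 86.7 and 151 CPM in the Calb2-low libraries. P2rx3, the partner subunit of P2rx2, had 54.4, 51.7, 53.9 and 80.6 CPM in the Calb2-high libraries, against 80.0, 59.9, 90.7 and 129 CPM in the Calb2-low libraries. Both sets of libraries therefore held these markers of the labelled ganglion, and they overlapped for both genes. Cdh4, a cadherin of the same list, had 5.10, 10.4, 12.2 and 13.2 CPM in the Calb2-high libraries, against 1.73, 2.69, 3.20 and 5.68 CPM in the Calb2-low libraries, and overlapped by 1 pair of libraries.

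Somatosensory and motor neuron markers were mixed. Of 12 measured somatosensory markers 3 were set apart higher (Whrn, Pvalb and Tac1), against 1.84% of all genes. The 12 had 6 positive and 6 negative differences and a median of -0.00. Whrn, the scaffold protein whirlin, had 8.04, 34.2, 22.8 and 27.2 CPM in the Calb2-high libraries, against 7.37, 2.82, 5.44 and 1.53 CPM in the Calb2-low libraries. Tac1, the precursor of substance P, had 82.0, 68.4, 71.3 and 107 CPM in the Calb2-high libraries, against 25.2, 60.1, 31.0 and 41.9 CPM in the Calb2-low libraries. None of the 5 measured motor neuron markers was set apart, and their most abundant member Prph, peripherin, had 672, 428, 727 and 629 CPM in the Calb2-high libraries, against 531, 929, 559.6 and 973 CPM in the Calb2-low libraries. Of 8 measured markers of inhibitory neurons and 8 of forebrain excitatory neurons, none was set apart. Gad1, which makes GABA, followed the Purkinje genes, with 6.58, 38.1, 133 and 1.93 CPM in the Calb2-high libraries, against 7.70, 4.98, 24.4 and 0.409 CPM in the Calb2-low libraries. Of 10 Hox genes of the hindbrain only 2, Hoxa2 and Hoxb2, were measured, both under 3 CPM in every library.

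Genes shared by many neurons were mostly higher in the Calb2-high libraries. Of 21 measured pan-neuronal genes 19 had a positive difference, with a median of 0.36. Set apart higher were 4 (Snap25, Syp, Vsnl1 and Ina), against 1.84% of all genes. Snap25, a protein of synaptic vesicle fusion, had 2794, 4191, 5056 and 4411 CPM in the Calb2-high libraries, against 1054, 1996, 1401 and 2012 CPM in the Calb2-low libraries. Vsnl1, the calcium sensor visinin-like 1, had 106, 189, 249.8 and 172 CPM in the Calb2-high libraries, against 29.9, 53.2, 47.3 and 45.9 CPM in the Calb2-low libraries. The differences of Syp (1.15), Snap25 (1.37) and Vsnl1 (1.99) were well under those of Pvalb (4.56) and Calb1 (3.89). That of Ina, at 3.88, was close to that of Calb1. Of 18 measured genes of synaptic release, 4 were set apart higher (Snap25, Vamp1, Cplx1 and Sv2a), with a median of 0.32. Among 10 neurofilament and cytoskeleton genes 1, Ina, was set apart, with a median of 0.49.

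Some potassium channels of fast-firing neurons were part of this pattern. Of 15 measured genes of fast firing, 4 were set apart higher, with Kcnc1 and Kcnc2 among them, against 1.84% of all genes. The median log2 difference of the 15 was 0.49. In all, 12 had a positive difference and 3 a negative one. The negative ones were Kcna6 (-0.89), Scn4b (-0.49) and Kcnc4 (-0.26), which is of the same family as Kcnc1 and Kcnc2. Kcnc2, a Kv3 channel that repolarises the membrane quickly, had 28.4, 72.0, 53.1 and 90.2 CPM in the Calb2-high libraries, against 5.52, 10.4, 13.8 and 13.1 CPM in the Calb2-low libraries. Kcnc1, of the same family, had 50.7, 65.9, 86.1 and 112 CPM in the Calb2-high libraries, against 27.8, 18.2, 30.9 and 41.5 CPM in the Calb2-low libraries. The log2 differences were 2.46 for Kcnc2 and 1.41 for Kcnc1, and neither overlapped between the sets. Kcna1, a Kv1 channel at axons, had 298, 569, 441 and 448 CPM in the Calb2-high libraries, against 256, 263, 278 and 486 CPM in the Calb2-low libraries, and overlapped.

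Beyond Calb1 and Pvalb, 3 of the other 13 measured neuronal calcium-binding protein genes were set apart higher, against 1.84% of all genes. They were Vsnl1, Ncs1, a neuronal calcium sensor, and Efhd2, an EF-hand protein. Ncs1 had 127, 198, 213 and 232 CPM in the Calb2-high libraries, against 66.5, 85.2, 116 and 91.2 CPM in the Calb2-low libraries. Efhd2 had 198, 276, 285 and 324 CPM in the Calb2-high libraries, against 83.3, 92.4, 133 and 126 CPM in the Calb2-low libraries. The median over this list without Calb1 and Pvalb was 0.11.

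Glial genes ran the other way. All 12 measured markers of myelinating Schwann cells, the glia of peripheral nerve, had a negative difference, with a median of -0.63. They summed to 14660 to 28024.5 CPM in the Calb2-high libraries and 32632 to 40688 CPM in the Calb2-low libraries, with no overlap. Of the 12, 1, Mag, was set apart lower, against 0.91% of all genes. Mag, the myelin-associated glycoprotein, had 203, 181, 70.1 and 263 CPM in the Calb2-high libraries, against 359.8, 563, 449 and 319 CPM in the Calb2-low libraries. Knockout library 4 was the lowest of the 8 for Mag. Of 11 satellite glia markers 1 was set apart lower. Of 13 markers of central glia, which include oligodendrocytes and astrocytes, 12 had a negative difference, with a median of -1.06, and none was set apart. Mog, a myelin protein made by oligodendrocytes, had 67.8, 36.7, 12.7 and 88.2 CPM in the Calb2-high libraries, against 122, 212, 137 and 58.3 CPM in the Calb2-low libraries, so wild type library 3 lay among the Calb2-high values. Whether the neuronal and glial shares of the tissue account for other differences between the sets was not tested.

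Markers of several other tissues varied between single libraries and overlapped between the sets. The 4 measured pituitary hormone genes summed to 5.04, 6502, 2.46 and 199.9 CPM in the Calb2-high libraries and to 56.7, 4456, 4.82 and 670.7 CPM in the Calb2-low libraries, so 1 library of each set was far above the rest. The 9 bone marrow neutrophil markers summed to 1404, 349.6, 113 and 3628 CPM in the Calb2-high libraries and to 1097, 408, 281 and 1468 CPM in the Calb2-low libraries. Ptgds, an abundant gene of the meninges and choroid plexus, had 92176, 31834, 24191 and 23317 CPM in the Calb2-high libraries, against 68317, 25754, 29939 and 9812 CPM in the Calb2-low libraries. None of the 12 markers of choroid plexus and meninges, 10 of endothelium, 8 of fibroblasts or 10 measured genes of injury and stress was set apart. The 8 fibroblast markers and the 10 injury and stress genes all had a negative difference, with medians of -0.65 and -0.49. The injury and stress genes summed to 212, 171, 219 and 197 CPM in the Calb2-high libraries and to 253, 242, 349.8 and 246 CPM in the Calb2-low libraries, with no overlap.

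**Figure D3:**
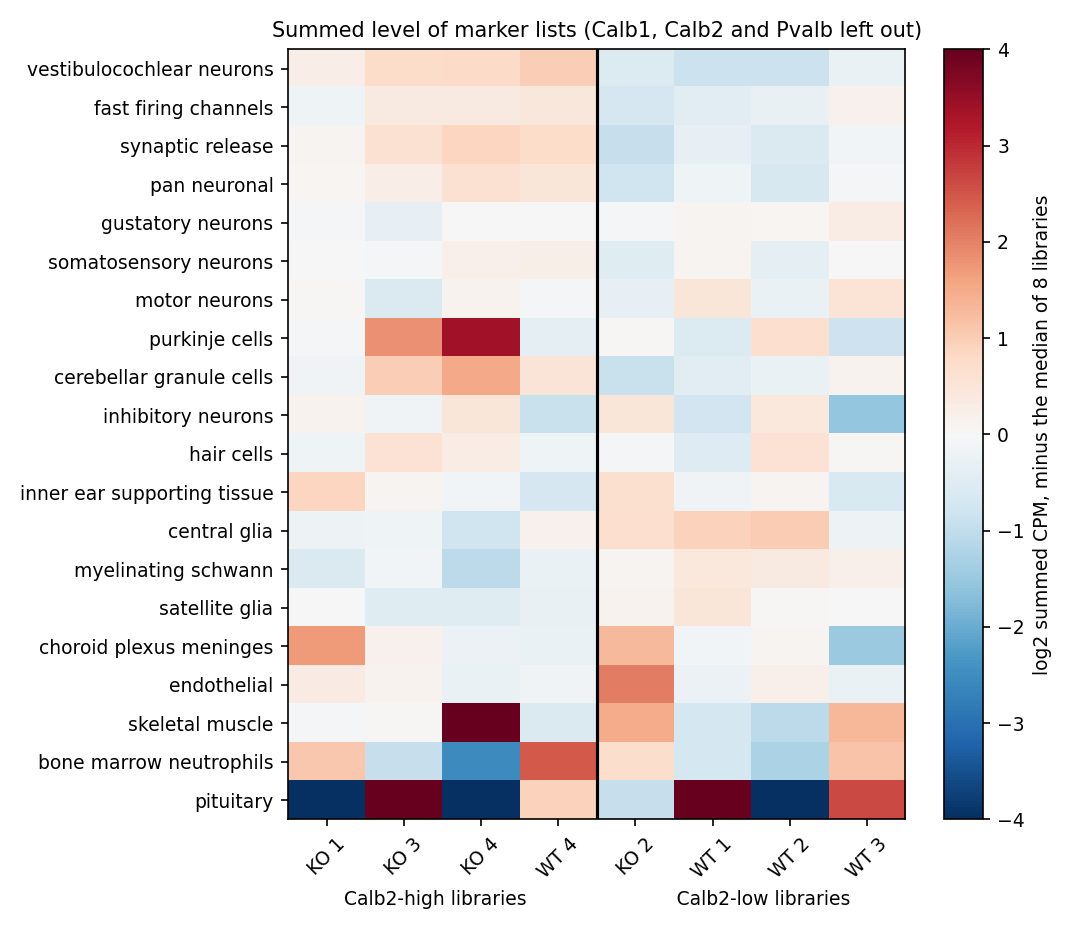
Summed level of 20 marker lists in the 8 libraries, as log2 of summed CPM minus the median of the 8 libraries, with Calb1, Calb2 and Pvalb left out and colours capped at 4 in either direction. Calb2-high libraries are left of the black line. The vestibulocochlear, pan-neuronal and synaptic release rows are above the median in the 4 Calb2-high libraries. The Purkinje and granule cell rows are reddest in knockout libraries 3 and 4, and muscle stands out in knockout library 4 alone.

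Each genotype held both kinds of library, so the sets could also be described within genotypes. The Calb2-high set had 3 knockout libraries and 1 wild type library, and the Calb2-low set had 1 knockout library and 3 wild type libraries. Within knockout, libraries 1, 3 and 4 all lay above library 2 by at least 2-fold on average for 964 genes (6.7%), and within wild type, library 4 lay above libraries 1 to 3 in the same way for 998 genes (6.93%). The 342 genes found in both were 35.5% of the knockout genes and 34.3% of the wild type genes. On the lower side there were 1477 genes within knockout (10.3%) and 1129 within wild type (7.84%). The 225 found in both were 15.2% of the knockout genes and 19.9% of the wild type genes.

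Calb1 differed by 3.32 on the log2 scale between Calb2-high and Calb2-low libraries within knockout and by 4.28 within wild type. Pvalb differed by 4.43 within knockout and by 4.76 within wild type. Art1 differed by 6.13 and 7.48, and Crhr1 by 6.01 and 6.59, within knockout and within wild type. Spp1, with 1.34 within knockout and 3.01 within wild type, was less even, since knockout library 2 had the highest Spp1 of the Calb2-low libraries. Gabra6 differed by 2.88 within knockout and by -0.65 within wild type, and Cbln3 by 2.75 within knockout and by -0.51 within wild type. A single library stands on 1 side of each of these within-genotype differences, so they carry no spread of their own.

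**Figure D4:**
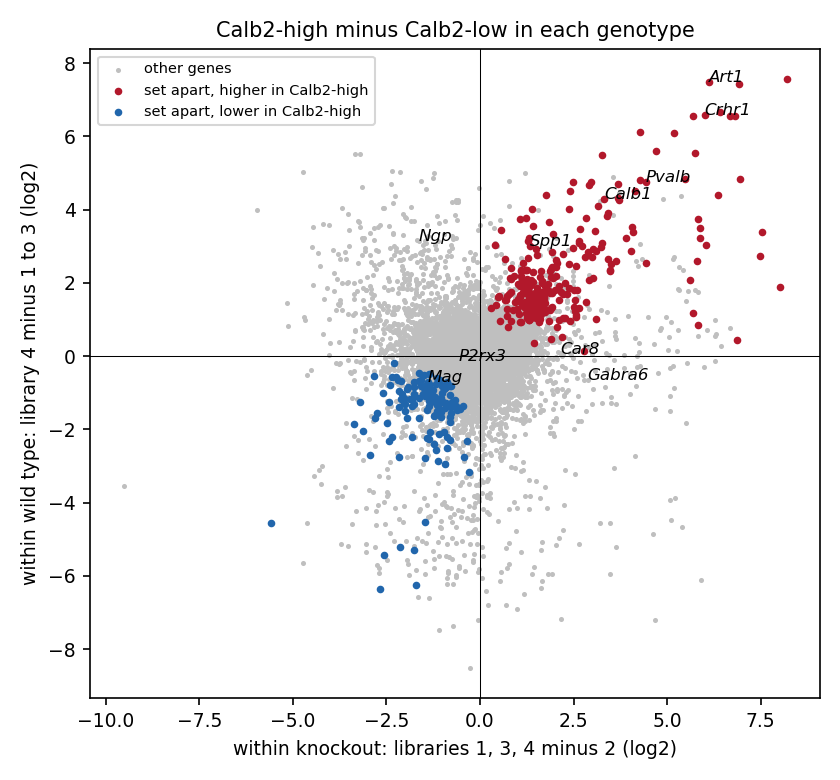
Difference in log2 CPM between Calb2-high and Calb2-low libraries for each gene, within knockout (libraries 1, 3 and 4 minus library 2) on the horizontal axis and within wild type (library 4 minus libraries 1 to 3) on the vertical axis. Red and blue points are the genes set apart higher and lower over all 8 libraries. Art1, Crhr1, Calb1 and Pvalb are high on both axes, while Car8 and Gabra6 are high on the knockout axis alone.

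Genotype was not used to divide the libraries, so knockout against wild type could be tested. With edgeR's quasi-likelihood test and Benjamini-Hochberg adjustment, 1 of 15110 genes was called at an adjusted p of 0.05 (0.00662%), and 731 had an unadjusted p under 0.05 (4.84%). The called gene was Wdfy1, which lies outside the rule for named genes and was chosen after its values were seen. It had 38.0, 52.7, 48.9 and 59.3 CPM in knockout libraries 1 to 4, against 5.59, 9.07, 8.93 and 12.4 CPM in wild type libraries 1 to 4, so every knockout library lay above every wild type library, whatever its Calb2. None of the 396 genes set apart by Calb2 was called, and 22 of them (5.56%) had an unadjusted p under 0.05. These genes were chosen for a difference that also lies between libraries of one genotype, which widens their spread within genotypes. The lack of calls among them therefore cannot show whether genotype affects them. The count of called genes over the whole table was 0 with RLE factors, with column totals and without 7 of the 8 libraries in turn, and 14 with DESeq2.

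Calb1 averaged 345 ± 293 CPM in knockout and 135 ± 221 CPM in wild type ganglia (SD, n = 4 each). In edgeR's quasi-likelihood test this was a log2 fold change of 1.35 (SE 1.16), adjusted p 0.924. With the Calb2 class in the model, an alternative fit, the log2 fold change was 0.28 (SE 0.43) with an adjusted p of 0.945. Pvalb averaged 332 ± 216 CPM in knockout and 143 ± 246 CPM in wild type ganglia (SD, n = 4 each), with a log2 fold change of 1.21 (SE 1.24). With the Calb2 class its log2 fold change was -0.14 (SE 0.31), with an adjusted p of 0.964 in the same edgeR test. In wild type ganglia the SD exceeded the mean for both genes. Over the 100 named genes the smallest adjusted p of edgeR's test was 0.924, and with the Calb2 class in the model it was 0.816. Many named genes were chosen for their difference by Calb2 class, so without the class in the model their spread within genotypes is wide by choice. Adding the class to the model left 0 of 15110 genes called, with 900 at an unadjusted p under 0.05.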

How the data were processed

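Whole geniculate ganglia of 4 Egr4-/- and 4 Egr4+/+ mice were measured by RNA-seq, with 1 library per mouse. The authors deposited raw read counts per gene for each library, in a table of 15110 genes that also gives gene lengths. Per the submitters' processing notes, the build was mm10 and the tools were STAR 2.5, edgeR 3.12.1, FastQC 0.11.5 and featureCounts (Subread 1.5.1). Per the labels' protocols, libraries were made with a SMART-Seq v4 kit and a Nextera XT kit, with no molecular identifiers described, so PCR copies could not be told from separate molecules. The 8 per-library columns of derived expression values were not used.

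Libraries were divided at 100 CPM of Calb2 by column totals. Members and gene lists were chosen with earlier results of these data known. Levels are TMM-scaled CPM from edgeR 4.0.16 in R 4.3.3, and log2 CPM has a prior count of 2. A list's median is over its measured genes. Knockout was tested against wild type with edgeR's quasi-likelihood F-test (robust, two-sided, genotype only), with Benjamini-Hochberg adjustment over 15110 genes and a threshold of 0.05. The default filterByExpr filter removed 0 genes. P-values measure the spread between these 8 mice.

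The 100 named genes are Calb2, Calb1 and Pvalb, up to 12 higher and 8 lower genes set apart with a mean of 10 CPM in the higher libraries and the same direction in both genotypes, ordered by difference, and from each of the 27 lists up to 3 members with the largest difference and the most abundant member. Predicted genes were left out, and some genes that the rule or a list names are not reported here. Other genes of a list named in the text, Egr4 and Wdfy1 lie outside this rule. Among them, 21 overlap an exon of a neighbouring gene in the GENCODE annotation of mm10. Libraries of a genotype differed by a chi-square of at least 124 per degree of freedom, so none was a duplicate. Same-numbered knockout and wild type libraries were not taken as pairs. Both procedures were tested on simulated data. Alternatives were other scaling, filters, prior counts and tests, a replicate block, the Calb2 class as a covariate and each library left out. DESeq2 was version 1.42.0.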

Additional observations from a re-analysis of the deposited data

Results flagged for a closer look

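A value was marked where the highest or lowest of the 4 libraries of a set lay far from the other 3, measured as its gap to the nearest library over the set's whole range, and set against Dixon's 95% critical value. This held for 23 of 250 groups of 4 values, where a rate of 1 in 20 would give 12.5. That rate holds for independent, normally distributed values. These were CPM values, and list sums contain genes that were also counted alone, so the excess was not tested. Knockout library 4 was far above the other Calb2-high libraries for Mb (0.992), the muscle genes Ckm (0.997), Myh4 (0.993), Tnni2 (0.967) and Acta1 (0.994), and the sum of the muscle markers (0.995). Knockout library 3 was far above them for the pituitary hormone genes Prl (0.991), Gh (0.913) and Cga (0.976) and the pituitary sum (0.970). Among the Calb2-low libraries, wild type library 1 was far above the rest for Prl (0.867) and the pituitary sum (0.850).

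Knockout library 1 was far above the other Calb2-high libraries for Ptgds (0.876) and the sum of choroid plexus and meninges markers (0.876), and far below them for the sum of forebrain excitatory markers (0.885). Wild type library 4 was far above the other Calb2-high libraries for Sorcs2 (0.853) and P2rx3 (0.908). Among the Calb2-low libraries, knockout library 2 was far above the rest for Filip1l (0.876), Cldn5 (0.977) and the endothelial sum (0.902). Wild type library 2 was far above them for Trim54 (1, with the other 3 at 0) and the injury and stress sum (0.902), and wild type library 3 for Kcna1 (0.902).

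For 4 of the genes that the rule names and that are reported here, every Calb2-high library lay on the one side of the Calb2-low libraries within knockout and on the other within wild type, with no minimum size, and this contrast was not tested. The log2 differences within knockout and within wild type were 2.88 and -0.65 for Gabra6, 2.75 and -0.51 for Cbln3, -1.46 and 4.56 for Vip, and -2.40 and 0.49 for Cldn5. Egr4, outside that rule, did the same, with -0.65 within knockout and 0.95 within wild type.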

How the results depend on the processing

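The count of genes called between genotypes, 1 in the fit given, was 0 with RLE factors, 0 with column totals, 14 with DESeq2 (7 higher, 7 lower), 10 with edgeR's likelihood ratio test, 2 with the replicate block and 0 with the Calb2 class. Leaving out each library gave 0 to 1, with 1 only without wild type library 4. Same-numbered libraries correlated at 0.061, 0.149, 0.0040 and 0.063 in their deviations, and 5 of 8 libraries correlated best with their own number, a hint from the data. The 396 genes set apart became 107 at 4-fold and 725 without knockout libraries 3 and 4, where fewer libraries must not overlap. Leaving out each library gave 419 to 670, with 670 without knockout library 1 and 595 without wild type library 1. Column totals gave 390, with 233 higher and 157 lower. RLE factors, other prior counts, no filter and a 2-fold minimum within each genotype gave 295 to 423. Calb2 thresholds of 50 and 300 CPM give the same split, since no library lies between. The fits without knockout libraries 3 and 4 were added after seeing the data. The Purkinje list's median turned to -0.028 without those. The muscle list's median of 0.99 was -0.65 without knockout library 4, the endothelial median of -0.45 was 0.07 without knockout library 2, and the inhibitory neuron median of 0.57 was -0.10 without wild type library 3. In all, 35 of 300 list medians under alternatives took the other sign, in 10 of 25 lists, 6 of which had medians of 0.2 or less in size. Of 1188 values of named genes under alternatives, 50 took the other sign, 0 of them for genes set apart, and 6 moved by more than 1 SD. Genes near 0, such as Trim54 in the Calb2-low libraries, are limited by depth, and intervals are not given for them.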

Other observations

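Some members of further gene families also stood apart in the Calb2-high libraries. The families were chosen after their values were seen, so their counts are a description only. Over all genes, 1.84% were set apart higher and 0.91% lower. Some members were already given above, namely Chrna4, Esrrg, Tmc1, Whrn, Trim54, Tcap and Smpx, and these are not further observations. Of 8 measured neuronal nicotinic receptor subunits, 4 were set apart higher (Chrna4, Chrna6, Chrnb3 and Chrnb4). Chrna6 had 22.6, 60.04, 57.1 and 54.2 CPM in the Calb2-high libraries, against 2.83, 5.94, 4.66 and 6.71 CPM in the Calb2-low libraries. Chrnb3 had 8.00, 9.59, 9.54 and 11.8 CPM in the Calb2-high libraries, against 3.79, 2.69, 1.43 and 3.118 CPM in the Calb2-low libraries. Chrnb2, the common partner subunit of the brain's receptors, had 20.5, 23.9, 24.98 and 34.0 CPM in the Calb2-high libraries, against 24.6, 29.8, 20.1 and 39.6 CPM in the Calb2-low libraries, and overlapped. All 3 estrogen-related receptor genes were set apart higher. Esrrb, with the largest difference of the 3, had 3.85, 4.76, 4.11 and 4.30 CPM in the Calb2-high libraries, against 0.281, 0.144, 0.0932 and 0.409 CPM in the Calb2-low libraries. Irx1 and Irx2 were set apart among 4 measured Irx homeobox genes. Irx2 had 9.48, 13.2, 14.6 and 14.2 CPM in the Calb2-high libraries, against 0.702, 2.34, 2.33 and 1.23 CPM in the Calb2-low libraries.

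Among 17 measured genes of the hair bundle, the mechanosensory organelle of hair cells, 6 were set apart higher (Ptprq, Grxcr2, Tmc1, Clrn1, Cib2 and Whrn). Ptprq, a receptor phosphatase of the bundle, had 3.26, 4.04, 9.19 and 6.74 CPM in the Calb2-high libraries, against 0, 0.144, 0 and 0 CPM in the Calb2-low libraries. Cib2, a calcium-binding partner of Tmc1, had 40.8, 33.8, 37.0 and 48.0 CPM in the Calb2-high libraries, against 12.4, 15.3, 15.2 and 18.4 CPM in the Calb2-low libraries. Other bundle genes overlapped, with Triobp, a protein of the bundle's rootlets, at 43.6, 50.6, 33.7 and 42.0 CPM in the Calb2-high libraries, against 52.6, 35.5, 59.9 and 48.4 CPM in the Calb2-low libraries. The 11 bundle genes not set apart included some with a negative log2 difference, such as Pdzd7 (-1.11). Of 20 measured sarcomere genes, 6 were set apart higher (Trim54, Tcap, Smpx, Myot, Myom3 and Tmod4). The other 14 were not set apart, and Myom1 among them had a log2 difference of -2.19. Of 5 measured Kcnq potassium channel genes, 1 was set apart higher and 1 lower. Kcnq5 had 2.54, 7.15, 5.1996 and 12.5 CPM in the Calb2-high libraries, against 0, 0, 1.15 and 0 CPM in the Calb2-low libraries. Kcnq1 had 1.04, 1.92, 1.42 and 0 CPM in the Calb2-high libraries, against 9.29, 6.40, 2.86 and 2.47 CPM in the Calb2-low libraries.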
